A study of Mus musculus with 10 samples.

Results

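The replication-dependent histone genes measured here were the protein_coding rows of the deposited count table whose gene name begins with Hist1h, Hist2h, Hist3h or Hist4h and whose counts summed to at least 50 over the 10 libraries. The rule found 28 genes among 64 histone rows of that name pattern and 40481 gene identifiers in all. They code for 4 linker histones H1, 4 H2A, 9 H2B, 5 H3 and 6 H4 proteins, and 21 of them belong to the Hist1 cluster, 4 to Hist2, 2 to Hist3 and 1 to Hist4. The libraries were made from total RNA of dorsal root ganglia (DRG) of C57BL/6 mice, where the cell bodies of sensory neurons lie with their glia. Of the 10 libraries, 5 came from mice given oxaliplatin at 10 mg/kg, a platinum chemotherapy drug known for damaging sensory nerves, and 5 from vehicle controls. Ganglia were collected after 8 weeks of treatment, all RNA samples had passed an integrity number above 8, and no sex, age or genetic modification is given in the labels. The labels number the libraries 1 to 5 in each group but do not say in words that each is a separate animal, so p-values measure the spread between these libraries.

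Nucleosomes wrap DNA around a core of H2A, H2B, H3 and H4, and H1 binds the DNA that links them. Most mRNAs of the replication-dependent genes are made in S phase, lack introns and end in a stem-loop in place of a poly(A) tail; stem-loop binding protein (Slbp) and the U7 small nuclear RNA guide the cut that makes this end. Some of these genes can also give polyadenylated transcripts that run past the stem-loop, a form known from cells that have left the cell cycle, and postmitotic neurons are such cells. Outside S phase, nucleosomes are rebuilt largely from replication-independent histones such as H3.3, whose mRNAs carry poly(A) tails.

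The stem-loop is shown for the genes on which the results below turn, because it separates the H4 members from the others. Each sequence is from the GENCODE M21 transcripts, written as DNA 5′ to 3′, with both stem arms in capitals, the 4-base loop between them and 5 flanking bases on each side in lower case.
Hist1h1c: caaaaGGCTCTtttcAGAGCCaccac
Hist3h2a: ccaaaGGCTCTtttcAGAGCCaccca
Hist1h2be: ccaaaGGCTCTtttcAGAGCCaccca
Hist2h3c2: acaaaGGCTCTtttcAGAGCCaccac
Hist1h4d: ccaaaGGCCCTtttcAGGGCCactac
Hist1h4h: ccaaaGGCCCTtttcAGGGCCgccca
Hist2h4: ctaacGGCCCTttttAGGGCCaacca
A stem-loop of this 16-base consensus followed the stop codon in the annotated transcript of 23 of the 28 genes, 21 to 54 bases after it. All 6 H4 genes had the arms GGCCCT and AGGGCC, and all 17 other genes with a stem-loop had GGCTCT and AGAGCC. Across the annotation, 86 of 55450 genes (0.155%) held the consensus anywhere in a transcript. No match was found for Hist1h1b, Hist1h2bc, Hist2h2be, Hist1h2bn and Hist1h2br, which says only that these letters are not in their annotated transcripts.

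Long annotated transcripts were more frequent in the genes that reached 50 counts than in the histone rows below. The rule is on raw counts, which can grow with transcript length, and the part of length in it was not tested. The longest annotated transcript exceeded 1000 bases in 15 of the 28 members and in 2 of the 36 histone rows below the threshold, with medians of 1079 and 474.5 bases. Those 15 genes held 92.1% of all member counts, and Hist1h2bc and Hist1h1c, both among them, held 76.9%. In a partly different set of 15 members the transcript ran on for over 300 bases past the stem-loop. Hist1h2bc, with no annotated stem-loop, is not in that set. Sequence that occurs nowhere else in the transcript set also had a higher median share in members, but the ranges overlapped. The median share of unique 75-base windows was 75.3% in members (range 12.4% to 100%). In the histone rows below the threshold it was 30.7% (range 0% to 100%). At the threshold itself, Hist1h1b with 53 counts and Hist1h2ac with 61 lay just inside, and Hist1h2ao with 44 and Hist1h4a with 43 lay just outside. No source used here says how reads that match several histone genes were counted, which leaves the split of counts between near-identical copies uncertain. The labels do not say whether RNA was selected by its poly(A) tail, so it is not known how far the counts cover transcripts that end at the stem-loop.

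**Figure D1:**
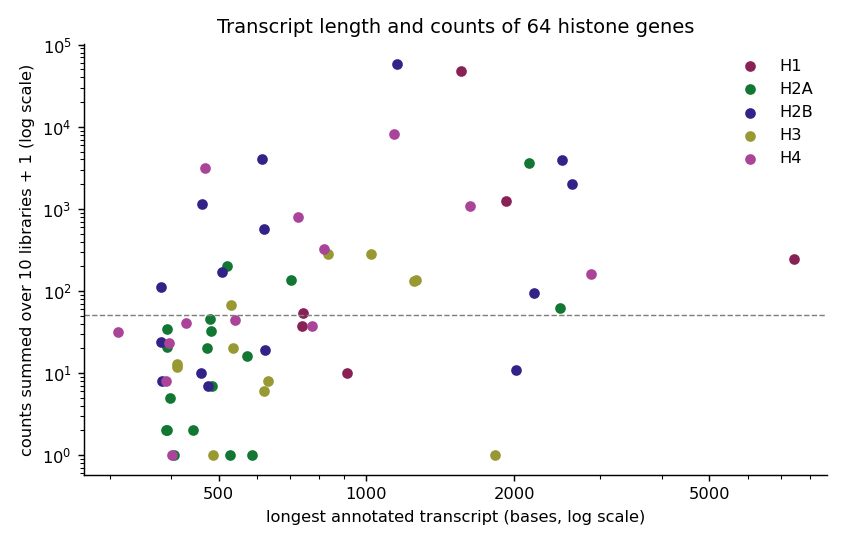
Each point is 1 of the 64 histone rows, coloured by type, with its longest annotated transcript in bases (x, log scale) against its counts summed over 10 libraries plus 1 (y, log scale); the dashed line is the minimum of 50 counts. Above the line 15 of 28 genes have a transcript over 1000 bases, and below it 2 of 36.

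Transcripts of 2 genes dominated the group. Hist1h2bc, an H2B gene, held 42.3% and Hist1h1c, the gene of linker histone H1.2, held 34.6% of the 139317 member counts, and 12 of the 28 genes averaged at least 1 CPM (counts scaled to a common library total, with TMM factors). Divided by the length of the annotated exons, the mean level over 10 libraries was 89.6 CPM per kilobase for Hist1h2bc and 54.1 for Hist1h1c. Next came Hist1h4d at 12.5, Hist1h4h at 11.8 and Hist3h2ba at 11.5 CPM per kilobase, and then Hist1h2bj at 4.42 and Hist3h2a at 2.93. In the whole order, the library ranges of 25 of 27 neighbouring genes overlapped; the gaps lay after Hist1h1c and after Hist3h2ba. Total counts per library ran from 52963470 to 60984426, of which 10297 to 18172 fell on the histone genes. Oxaliplatin replicate 1 stood apart in markers of neighbouring tissue: its adipocyte marker sum was 618 CPM (15.0 to 40.1 in the other 4 oxaliplatin and 7.41 to 31.5 in the vehicle libraries). Its skeletal muscle marker sum was 593 CPM, against 7.81 to 18.5 in the other 4 oxaliplatin and 81.9 to 405 in the vehicle libraries. It was also the lowest library for Hist1h2bc and Hist1h2be, and the part of these tissues in the histone values was not tested.

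The comparison of the 5 oxaliplatin with the 5 vehicle libraries asked whether treatment changed these mRNAs. Hist1h2be (H2B) fell after oxaliplatin, from a mean of 8.40 to 5.51 CPM, and no histone member rose by edgeR's quasi-likelihood test at an adjusted p of 0.05. By the same rule, 0.772% of the 18401 genes tested were lower and 1.27% higher (2.04% in either direction), and 1 of the 24 histone genes with enough counts to be tested was lower. Log2 fold changes (oxaliplatin against vehicle) were below 0 in 17 of the 24, beside 49.0% of all genes, and their median was -0.32 beside 0.01 over all genes. At an unadjusted p below 0.05, 7 were lower (29.2%; 7.80% of all genes) and 1 was higher, Hist1h4d (8.51% of all genes). These shares describe the group and were not tested as a set. The count filter could bear on them, and over all 28 members fitted without it 19 fold changes were below 0 and 9 above, with a median of -0.32. In 16 members that reached the filter's minimum in every library, 11 were below 0 and 5 above, with a median of -0.26. In whole tissue, fewer cells of a type and less RNA per cell cannot be told apart.

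**Figure D2:**
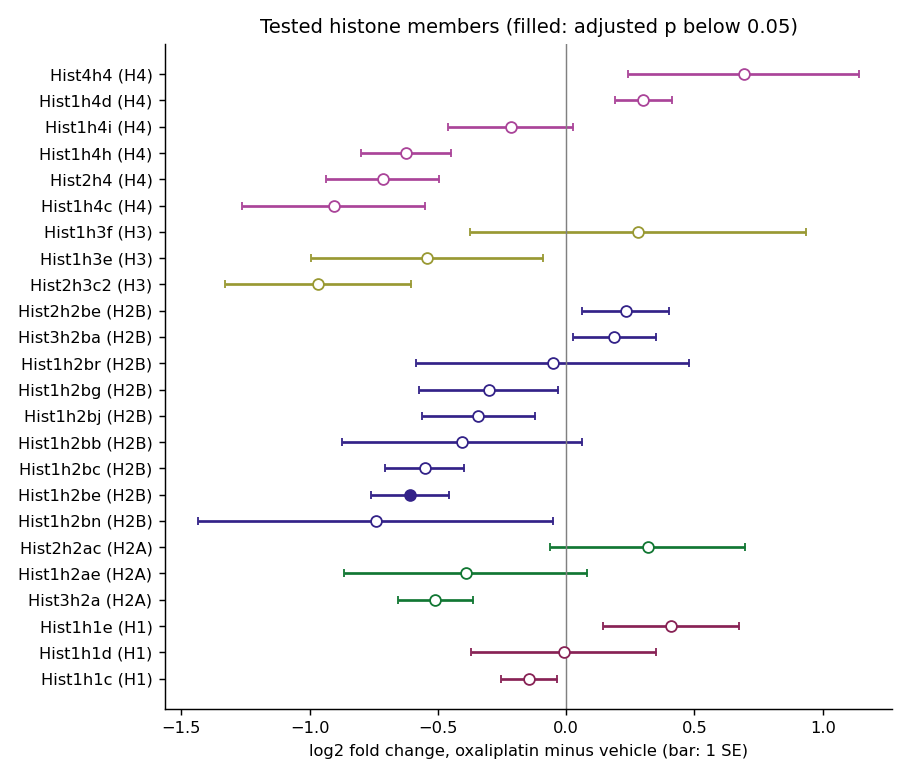
Log2 fold change of oxaliplatin against vehicle (x) for the 24 tested histone genes, grouped and coloured by type; points are edgeR estimates from 5 and 5 libraries and bars are 1 SE. Hist1h2be, the filled point at -0.61, is the gene past the adjusted threshold, and 17 of 24 points lie left of 0.

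The H2B genes held the most counts of any type. Hist1h2be (ENSMUSG00000047246) was at 7.76, 8.34, 7.83, 9.76 and 8.31 CPM in vehicle libraries 1 to 5 and at 3.88, 7.50, 5.23, 5.17 and 5.76 CPM in oxaliplatin libraries 1 to 5. Every oxaliplatin library lay below every vehicle library. The mean was 1.53-fold lower, with a log2 fold change of -0.61 ± 0.15 (SE, n = 5 and 5; adjusted p = 0.0464, edgeR quasi-likelihood test with Benjamini-Hochberg adjustment). This call held when oxaliplatin replicate 2 was left out (adjusted p = 0.00966) and was lost when any other single library was left out (adjusted p up to 0.146). Leaving out oxaliplatin replicate 1 gave -0.50 on the log2 scale (adjusted p = 0.109, edgeR). The annotated exons of Hist1h2be share 496 bases on the same strand with those of Hist1h1e, so reads there cannot be assigned to either gene from the counts; Hist1h1e had a log2 fold change of 0.41 ± 0.27 (SE).

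Hist1h2bc (ENSMUSG00000018102), the member with the most counts, was at 112, 103, 112, 136 and 153 CPM in vehicle libraries 1 to 5. In oxaliplatin libraries 1 to 5 it was at 63.5, 113, 82.1, 76.9 and 84.5 CPM. Oxaliplatin replicate 2 lay among the vehicle values and the other 4 lay below all of them. The log2 fold change was -0.55 ± 0.15 (SE; adjusted p = 0.105, edgeR quasi-likelihood test), which did not pass the threshold. In edgeR it was -0.46 without oxaliplatin replicate 1 (adjusted p = 0.173). Without oxaliplatin replicate 2 it was -0.68 with an adjusted p of 0.0108 in edgeR.

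The other 7 H2B genes did not pass the threshold. Hist3h2ba was at 6.60 ± 1.22 CPM (SD, n = 5) in vehicle and 7.52 ± 1.78 in oxaliplatin libraries, with a log2 fold change of 0.19 ± 0.16 (SE). Hist2h2be, which is not in the Hist1 cluster, ranged from 2.22 to 4.02 CPM in vehicle and from 3.45 to 4.65 CPM in oxaliplatin libraries, with a log2 fold change of 0.23 ± 0.17 (SE). Its counts relative to those of Hist1h2be were 0.287 to 0.484 in vehicle and 0.540 to 0.893 in oxaliplatin libraries, a ratio chosen after its values were seen and given with no test. The remaining fold changes ran from -0.74 for Hist1h2bn, which is below 0.5 CPM in every library, to -0.05 for Hist1h2br.

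Of the H2A genes, Hist3h2a carried most of the counts. Hist3h2a (ENSMUSG00000078851) was at 6.47, 6.57, 6.63, 8.04 and 9.26 CPM in vehicle libraries 1 to 5 and at 4.73, 6.01, 6.22, 4.47 and 4.52 CPM in oxaliplatin libraries 1 to 5. The groups did not overlap, as for Hist1h2be; 2 of 24 histone genes (8.33%) and 1.77% of all tested genes were lower without overlap, and no histone gene was higher without overlap (2.25% of all tested genes). Its log2 fold change of -0.51 ± 0.15 (SE) did not pass the threshold (adjusted p = 0.0828, edgeR quasi-likelihood test). Hist3h2a shares 708 exon bases on the same strand with Trim17, a ubiquitin ligase gene, which was at 1.40 ± 0.177 CPM (SD, n = 5) in vehicle and 1.44 ± 0.455 in oxaliplatin libraries. Hist2h2ac and Hist1h2ae, at 12 to 37 and 5 to 24 counts per library, had log2 fold changes of 0.32 ± 0.38 and -0.39 ± 0.47 (SE).

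The H1 genes did not pass the threshold. Hist1h1c (ENSMUSG00000036181) was at 74.8, 77.5, 82.9, 93.9 and 114 CPM in vehicle libraries 1 to 5 and at 72.9, 87.0, 69.5, 83.4 and 87.9 CPM in oxaliplatin libraries 1 to 5. The groups overlapped between 74.8 and 87.9 CPM, and the log2 fold change was -0.15 ± 0.11 (SE; adjusted p = 0.565, edgeR quasi-likelihood test), or -0.037 without vehicle replicate 5. Hist1h1e, the gene of H1.4, was at 1.88 ± 0.522 CPM (SD, n = 5) in vehicle and 2.49 ± 0.986 in oxaliplatin libraries. Hist1h1d, the gene of H1.3, was at 0.435 ± 0.142 and 0.432 ± 0.140 CPM, a log2 fold change of -0.01 ± 0.36 (SE).

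None of the 6 H4 genes, which code for the same protein, passed the threshold, and at an unadjusted p below 0.05 in edgeR 3 were lower and 1 higher. Hist1h4d (ENSMUSG00000061482) was at 12.3, 12.4, 14.1, 10.2 and 14.8 CPM in vehicle libraries 1 to 5 and at 14.4, 13.96, 15.3, 17.3 and 17.6 CPM in oxaliplatin libraries 1 to 5. The groups overlapped between 13.96 and 14.8 CPM, and the log2 fold change of 0.30 ± 0.11 (SE) did not pass the threshold (adjusted p = 0.179, edgeR quasi-likelihood test). Hist1h4h (ENSMUSG00000060981) was at 6.13, 5.26, 5.90, 6.42 and 9.82 CPM in vehicle libraries 1 to 5 and at 3.52, 5.47, 3.71, 4.34 and 4.70 CPM in oxaliplatin libraries 1 to 5. Here oxaliplatin replicate 2 reached above the lowest vehicle library, and the log2 fold change was -0.62 ± 0.18 (SE; adjusted p = 0.0785, edgeR quasi-likelihood test). Hist2h4 had a log2 fold change of -0.72 ± 0.22 (SE; adjusted p = 0.108) and Hist1h4c of -0.91 ± 0.36 (SE; adjusted p = 0.210) in the same fit. Hist1h4i was at -0.22 ± 0.24 and Hist4h4 at 0.69 ± 0.45 (log2 fold change ± SE).

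The division of the H4 counts between the genes also differed between vehicle and oxaliplatin libraries. Hist1h4d took 46.1% to 57.1% of the H4 counts in vehicle libraries and 60.3% to 69.8% in oxaliplatin libraries, with means of 52.6% ± 4.66 and 66.7% ± 3.82 (SD, n = 5 each). Hist1h4h took 23.9% to 33.1% in vehicle and 15.9% to 23.6% in oxaliplatin libraries. Hist2h4 took 6.66% to 12.4% and 3.78% to 7.56%, with overlapping groups. Shares in a library are parts of the same total, so they are not independent of each other. The ratio of Hist1h4d to Hist1h4h counts was 1.51 to 2.39 in vehicle and 2.55 to 4.14 in oxaliplatin libraries. The pair was chosen after its values were seen, so this separation is a description with no test.

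**Figure D3:**
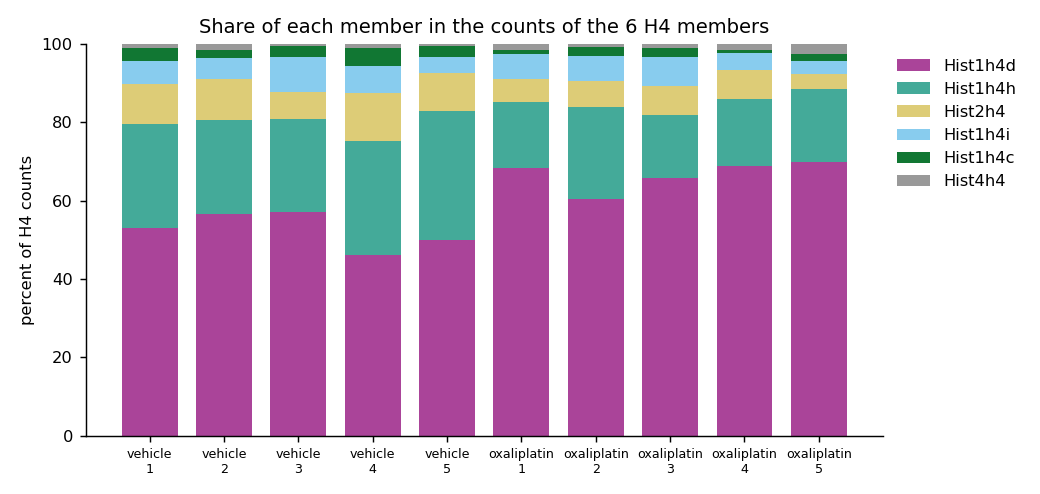
Each bar is 1 library and shows the percent of its H4 counts that fell on each of the 6 H4 genes. The Hist1h4d share lies between 46.1% and 57.1% in the vehicle bars and between 60.3% and 69.8% in the oxaliplatin bars.

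The promoters of these genes are shown because the fold changes of Hist1h4d and Hist1h4h had opposite signs (neither past the threshold), beside those of Hist1h2be and Hist3h2a, whose groups did not overlap. Each line gives the 150 bases before the annotated start in RefSeq (build GRCm38.p6), read 5′ to 3′ on the gene's strand, with CCAAT and TATAAA in capitals, on either strand (ATTGG and TTTATA are their reverse complements).
Hist1h2be, chr13:23585971-23586120, minus strand: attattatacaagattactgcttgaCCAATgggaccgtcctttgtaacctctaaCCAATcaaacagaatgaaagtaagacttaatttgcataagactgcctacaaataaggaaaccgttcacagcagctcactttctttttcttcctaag
Hist3h2a, chr11:58954535-58954684, plus strand: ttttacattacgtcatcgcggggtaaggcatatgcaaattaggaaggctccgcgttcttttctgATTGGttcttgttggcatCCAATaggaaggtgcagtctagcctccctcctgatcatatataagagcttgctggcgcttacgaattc
Hist1h4d, chr13:23581418-23581567, plus strand: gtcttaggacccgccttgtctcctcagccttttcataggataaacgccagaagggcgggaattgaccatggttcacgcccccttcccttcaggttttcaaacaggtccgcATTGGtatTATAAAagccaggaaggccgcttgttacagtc
Hist1h4h, chr13:23530894-23531043, plus strand: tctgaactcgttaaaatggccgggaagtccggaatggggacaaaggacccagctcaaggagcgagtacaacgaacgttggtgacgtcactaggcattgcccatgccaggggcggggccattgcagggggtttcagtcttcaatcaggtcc
Hist1h4d held both motifs, Hist1h2be and Hist3h2a held CCAAT, and Hist1h4h held neither; RefSeq lists another start for Hist1h2be, whose window also held CCAAT. RefSeq windows from 250 bases before to 50 after the start were matched for 24 of the 28 genes, giving 25 windows. CCAAT was found in 22 of them (88%), beside 37.4% of all 32851 promoter windows, and TATAAA in 13 (52%), beside 13.6%. Both motifs occurred in 12 windows (48%), beside 5.31%. The windows are not all separate sequence: those of Hist1h2ae and Hist1h2bg overlap on opposite strands, so shared matches were counted in both. Hist1h2be entered with a window for each of its starts. A match is a run of letters and does not show that a factor binds there.

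H3 genes held the fewest counts. Hist2h3c2 was at 0.579, 0.599, 0.411, 0.901 and 0.764 CPM in vehicle libraries 1 to 5 and at 0.417, 0.393, 0.444, 0.258 and 0.15 CPM in oxaliplatin libraries 1 to 5. Its groups overlapped, at 9 to 53 counts per library, and the log2 fold change was -0.97 ± 0.36 (SE; adjusted p = 0.189, edgeR quasi-likelihood test). Hist1h3e and Hist1h3f had log2 fold changes of -0.54 ± 0.45 and 0.28 ± 0.66 (SE). Hist1h3d and Hist1h3g, with 131 and 66 counts in all, did not reach the filter, nor did Hist1h1b and Hist1h2ac.

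**Figure D4:**
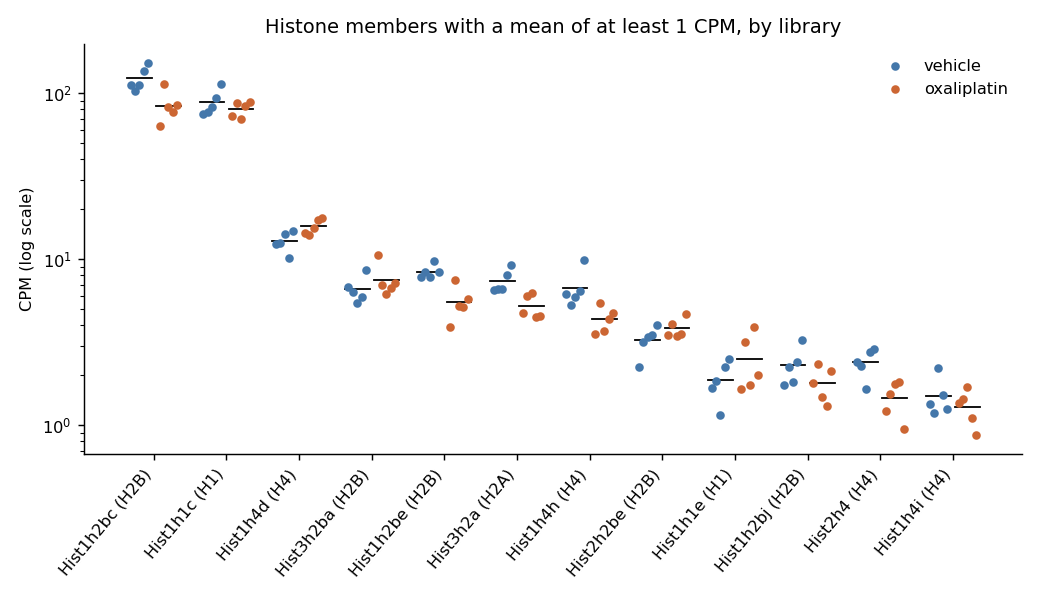
CPM on a log axis for the 12 histone genes that averaged at least 1 CPM, with 1 point per library (5 vehicle, 5 oxaliplatin). The vehicle and oxaliplatin points of Hist1h2be and Hist3h2a do not overlap, whereas those of Hist1h1c, Hist2h2be and Hist3h2ba do.

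Summed levels by type turned on 1 gene in H1, H2A, H2B and H4, and less so in H3. H2B summed to 146 ± 23.2 CPM (SD, n = 5) in vehicle and 104 ± 19.7 CPM in oxaliplatin libraries, a log2 ratio of the means of -0.48 that was -0.16 without Hist1h2bc. H2A summed to 8.08 ± 1.22 and 5.90 ± 0.786 CPM and did not overlap between groups (7.13 to 9.78 against 5.21 to 6.78), but its log2 ratio of -0.45 was 0.035 without Hist3h2a. H1 summed to 91.0 ± 16.4 and 83.2 ± 8.99 CPM, and its log2 ratio of -0.13 was 0.33 without Hist1h1c and -0.023 without vehicle replicate 5. H4 summed to 24.3 ± 3.19 and 23.6 ± 1.71 CPM, and its log2 ratio of -0.05 was -0.56 without Hist1h4d and 0.035 without vehicle replicate 5. H3 summed to 1.93 ± 0.663 and 1.22 ± 0.123 CPM, with overlapping groups, and its log2 ratio of -0.67 was -0.72 without its top gene. All 28 genes together summed to 271 ± 43.3 CPM in vehicle and 218 ± 27.1 CPM in oxaliplatin libraries, and without Hist1h2bc and Hist1h1c to 59.1 ± 7.30 and 53.8 ± 3.11 CPM. These sums have no test.

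**Figure D5:**
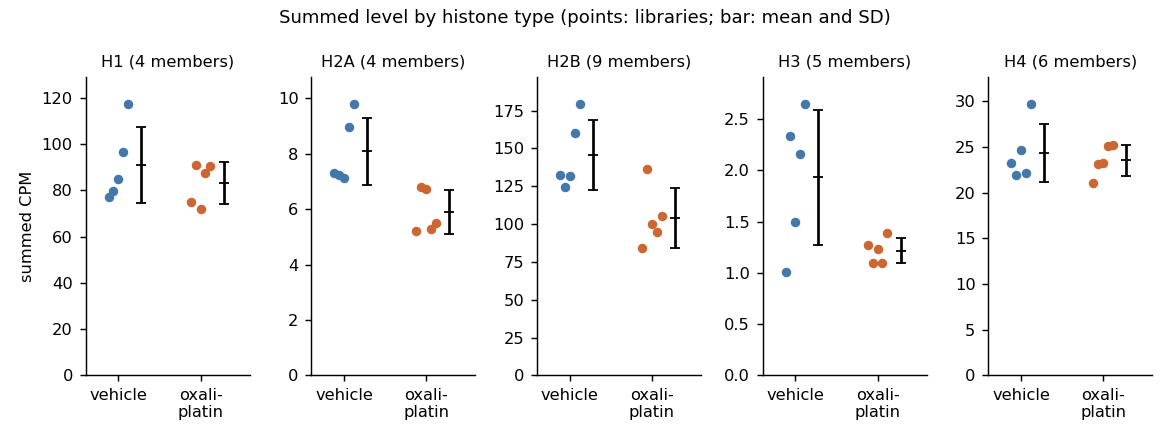
Summed CPM of the members of each histone type, 1 point per library, for 5 vehicle and 5 oxaliplatin libraries. Only the H2A sums do not overlap between groups (7.13 to 9.78 against 5.21 to 6.78 CPM).

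Vehicle replicate 5 was the highest library for 6 of the 12 genes that averaged at least 1 CPM, among them Hist1h2bc, Hist1h1c and Hist1h4h. With that library and oxaliplatin replicate 1 both left out, an alternative chosen after the data were seen, the median log2 fold change of the tested members was -0.15 and none passed the threshold in edgeR.

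No gene of 3 lists that act on histones or replace them passed the threshold. Of 11 replication-independent histone genes, none passed the threshold in edgeR, and 0 did at an unadjusted p below 0.05 (median log2 fold change 0.05): H3f3b, which codes for H3.3, was at 413 ± 37.8 CPM (SD, n = 5) in vehicle and 455 ± 45.8 CPM in oxaliplatin libraries, and Cenpa, the centromeric H3, at 0.834 ± 0.216 and 1.19 ± 0.329 CPM. Of 21 genes of histone mRNA transcription, 3′ processing and decay, none passed (median -0.05); at an unadjusted p below 0.05, 3 were lower and 2 higher in edgeR. Slbp, which binds the stem-loop, had a log2 fold change of -0.19 ± 0.08 (SE; adjusted p = 0.250, edgeR). Lsm10, a U7 particle subunit, was at -0.27 ± 0.10 and Lsm1, of the cytoplasmic decay ring, at -0.24 ± 0.09 (log2 fold change ± SE). Of 21 histone chaperone genes, none passed (median 0.07); 4 were higher and none lower at an unadjusted p below 0.05 in edgeR, with Hjurp, the CENP-A chaperone, at 0.31 ± 0.09 (log2 fold change ± SE; adjusted p = 0.0741).

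Of 30 S phase and cell division genes, 4 rose (13.3%) and none fell, beside 1.27% and 0.772% of all tested genes (median log2 fold change 0.20). Gtse1, expressed in G2 and S phase, rose from 1.31 ± 0.445 to 4.50 ± 0.517 CPM (SD, n = 5 each). The kinase gene Aurkb rose from 0.284 ± 0.116 to 1.12 ± 0.605 CPM, and Cdc20, an activator of the anaphase-promoting complex, from 0.609 ± 0.113 to 1.504 ± 0.601 CPM. Top2a, a topoisomerase of dividing cells, rose from 0.557 ± 0.231 to 1.74 ± 1.098 CPM. Pcna, the replication clamp, had a log2 fold change of -0.03 ± 0.06 (SE). Mcm2 to Mcm7, Rrm1, Rrm2, Tyms, Cdc6, Cdt1, Ccne1 and Ccne2 did not pass the threshold either. At an unadjusted p below 0.05 in edgeR, 8 of the 30 were higher and 1 lower (E2f1), beside 8.51% and 7.80% of all tested genes. The list was chosen with earlier results of these data known. Gtse1, Aurkb, Cdc20 and Top2a were called higher while no replication-dependent histone gene was. Whether the histone and division genes differ was not tested.

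A list of RNAs without a poly(A) tail and a list of long noncoding RNAs were also counted. In the first list, the ribosomal repeat transcript Gm42418 was at 10720 ± 1607 CPM (SD, n = 5) in vehicle and 10403 ± 965 CPM in oxaliplatin libraries. The other 17 listed RNAs without a poly(A) tail held 890 counts in all libraries together, with 3 at 0 throughout. They summed to 1.01 to 1.97 CPM in vehicle and 1.63 to 1.90 CPM in oxaliplatin libraries. With levels this far apart, the list does not show how far RNAs without a tail were captured. Of these RNAs with Gm42418, 4 were tested and none passed in edgeR, with 0 at an unadjusted p below 0.05. Of 11 long noncoding RNAs, 2 rose, Neat1 (log2 fold change 0.33 ± 0.07 SE, adjusted p = 0.0256, edgeR) and Meg3 (0.32 ± 0.08 SE, adjusted p = 0.0492, edgeR). The list of 11 summed to 8114 to 9043 CPM in vehicle and 9172 to 11685 CPM in oxaliplatin libraries. Malat1 made up much of this sum, with means of 5294 CPM in vehicle and 6163 CPM in oxaliplatin libraries. Which of the 11 carry a poly(A) tail was not measured. The part of either list in the histone values was not tested.

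Sensory neuron markers were all present, and their list of 6 summed to 11821 to 13272 CPM in vehicle and 10509 to 11977 CPM in oxaliplatin libraries, with none past the threshold (2.04% of all tested genes passed in either direction). Without the tubulin gene Tubb3 the other 5 summed to 2833 to 3213 CPM and 3122 to 3308 CPM, and the list's median log2 fold change was -0.01. Macrophage markers had 1 of 5 lower (Cx3cr1) and summed to 18.2 to 41.2 CPM in vehicle and 13.2 to 21.4 CPM in oxaliplatin libraries. Lymphocyte markers had 0 of 3 tested past the threshold and summed to 4.35 to 6.26 and 2.53 to 4.29 CPM. Endothelial markers had 2 of 4 higher (Pecam1 and Cdh5) and summed to 30.6 to 44.8 and 44.6 to 60.2 CPM. Satellite glia markers had 1 of 4 higher (Glul) and 1 lower (Fabp7), and the proliferating cell list had 1 of 3 higher (Top2a). No Schwann cell, fibroblast, adipocyte, skeletal muscle, red blood cell or spinal cord glia marker passed. Red blood cell sums were 137 to 439 CPM in vehicle and 9.53 to 693 CPM in oxaliplatin libraries. No marker of any list was at 0 in every library, and the part of these cells in the histone values was not tested.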

How the data were processed

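Total RNA of mouse DRG was sequenced in 10 libraries (5 oxaliplatin, 5 vehicle), assigned to groups from their titles and the treatment label; per the labels' protocols, libraries were made with a SMARTer kit; which kit, and whether RNA was selected by poly(A) tail, is not stated in them. The deposited file holds raw counts per gene. The submitters' processing notes name STAR 2.5.1a, Partek and DESeq2 without roles. Genome build, annotation, strand and the handling of multi-mapping reads were not given in the sources used here. Of 40757 rows, 276 repeats of 167 identifiers were dropped. Totals of 52963470 to 60984426 counts per library set the counting precision.

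Counts were tested over all genes with edgeR 4.0.16 (R 4.3.3; filterByExpr, TMM, robust quasi-likelihood, Benjamini-Hochberg adjustment, threshold 0.05). Alternatives were other scalings and filters, DESeq2 1.42.0, limma 3.58.1 voom, a replicate block and leaving out libraries. Within groups, libraries differed beyond counting noise (12.8 to 53.6 chi-square units per degree of freedom). Transcript features came from GENCODE M21, which holds all 64 histone rows, and promoter windows from RefSeq, matched by gene identifier.

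Members and gene lists were chosen with earlier results of these data known. Named genes are those past the threshold, in each type up to 3 with the highest mean CPM and up to 2 with the smallest p, those nearest the count minimum, and in each list those past the threshold and up to 3 of smallest p, of which only those with a described role are printed; other names were chosen after their values were seen.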

Additional observations from a re-analysis of the deposited data

Results flagged for a closer look

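In 66 groups of 5 libraries examined, 3 had a library far from the other 4 (a gap to the nearest of at least 0.710 of the whole range); chance gives about 1 in 20 groups. Hist3h2ba stood at 10.6 CPM in oxaliplatin replicate 1, against 6.12 to 7.22 CPM in its other 4 libraries. Hist1h4h was at 9.82 CPM in vehicle replicate 5 and at 5.26 to 6.42 CPM in the other vehicle libraries. Hist1h3d was at 0.5005 CPM in oxaliplatin replicate 5, which is 30 counts, and at 0 to 0.145 CPM in the other oxaliplatin libraries.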

How the results depend on the processing

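The number of histone genes called lower depended on the fit, while the median log2 fold change of the members stayed below 0 in every alternative run (-0.48 to -0.15). Against 1 gene lower and none higher, no composition factor gave 0 lower, no filter on low counts 2, a threshold of 0.1 gave 3, DESeq2 5, and limma voom 5 lower and 1 higher (Hist1h4d). DESeq2 and voom both called Hist1h2be, Hist1h2bc, Hist1h4h, Hist3h2a and Hist2h4. Leaving out 1 library gave 0 to 3 histone genes lower, 79 to 343 of all genes higher (main 234) and 34 to 251 lower (main 142). The 3 were Hist1h2bc, Hist1h2be and Hist1h4h, without oxaliplatin replicate 2; without each of the other 9 libraries none was called. Without oxaliplatin replicate 1 and vehicle replicate 5, an alternative chosen after seeing the data, 0 histone genes were lower and 142 and 76 of all genes were higher and lower. All genes gave 514 higher and 408 lower in DESeq2, 439 and 365 in voom, 424 and 304 at a threshold of 0.1, and 303 and 99 with no composition factor. The labels tie same-numbered libraries by number alone, and whether they were handled together was not tested. Correlations of their deviations were -0.04 to 0.21, and 3 of 5 oxaliplatin libraries matched their own number best. Some genes went with the number. H2afj was at 6.101 CPM in oxaliplatin replicate 3 and 5.076 CPM in vehicle replicate 3. In the other libraries it was at 22.3 to 36.3 CPM, a gene chosen after its values were seen. The fit with the replicate block gave 2 histone genes lower and 382 and 278 of all genes higher and lower (main 234 and 142). Without its top gene, the log2 ratio of summed levels moved to 0.33 for H1, 0.035 for H2A, -0.16 for H2B and -0.56 for H4, and was -0.72 for H3 (main -0.67). Hist1h2be was called in 7 of 18 alternatives (adjusted p 0.00399 to 0.146, each from the test of its fit) and below 0 in all 18. Among other genes, 13 pairs of gene and fit gained a call. These were Hist1h4h in 5 alternatives, Hist1h2bc in 3, Hist2h4 in 2, Hist3h2a in 2 and Hist1h4d in 1. The causes were not tested, and fits that leave out libraries also have fewer samples. In 14 of 28 members the mean was below 0.5 CPM, which limits what could be detected.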
